A study of Mus musculus with 6 samples.

Results

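The Toll-like receptor and NF-kB signalling genes described here were chosen by name, as 39 symbols, and 38 of them were found among the 32285 genes of the count tables. The symbol Pellino1 had no row of its own, and Peli1, which encodes the Pellino 1 protein, did. Nuclei came from brains of wildtype C57BL/6 mice, taken 6 weeks after sham surgery (3 libraries) or 5/6 nephrectomy (3 libraries), surgery in which one kidney and most of the other are taken out, a standard model of chronic kidney failure. All groups share the wildtype genotype and the strain, the labels give neither age nor sex, and the design text names the cortex. The comparison of the groups asks how brain cells respond to chronic kidney disease. Nuclei were sorted by flow cytometry and read with the Chromium 3' kit, which counts unique molecular identifiers (UMIs), one for each captured transcript. Whether the libraries stem from different animals is not in the labels, so the p-values measure only how these libraries vary, which may be technical.

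Toll-like receptors are membrane proteins that bind microbial lipids, proteins and nucleic acids, some at the cell surface (Tlr1, Tlr2, Tlr4, Tlr6) and some in endosomes (Tlr3, Tlr7, Tlr9). All but Tlr3 signal through the adaptor Myd88 and the IRAK kinases to the ubiquitin ligase Traf6, which activates the TAK1 kinase (Map3k7) with its partners Tab1, Tab2 and Tab3. TAK1 switches on the IKK kinases, IKK marks the inhibitor proteins of NF-kB for destruction, and the freed NF-kB dimers enter the nucleus and start transcription, among other genes that of their own inhibitor Nfkbia. In the brain the pathway is best known from microglia, the resident macrophages.

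Nuclei were assigned to classes from marker genes alone, none of which is a member. A nucleus entered a class where at least 3 of the class's gate markers had a UMI and at least 70% of its UMIs on all gate markers fell on that class. Barcodes ranged from 2637 to 14756 per library, total counts from 15691316 to 41532967 UMIs, and the gate placed 11647 nuclei. Excitatory neuron-like nuclei numbered 3032, astrocyte-like 2362, oligodendrocyte-like 2221, striatal projection neuron-like 2141, inhibitory neuron-like 939, oligodendrocyte precursor-like 371, microglia-like 317 and endothelial-like 243. Striatal projection neurons lie outside the cortex that the design text names. Mural-like (10) and fibroblast-like (11) nuclei were too few for any comparison. Markers of microglia that had been kept out of the gate summed to between 2047 and 5107 CPM per library in microglia-like nuclei (CPM, depth-scaled counts, is a gene's UMIs relative to all UMIs of that class in that library), and in every other class to between 0.804% and 4.15% of the microglia-like mean. Held-out markers of the other classes ranged more widely, as a share of their own class. Endothelial markers reached at most 0.583% elsewhere and oligodendrocyte markers at most 6.65%. Astrocyte markers reached 32.5% and inhibitory neuron markers 34.4% in striatal projection neuron-like nuclei. Excitatory neuron markers reached 37.5% in oligodendrocyte precursor-like nuclei. In microglia-like nuclei inhibitory neuron markers reached 16.9% and striatal projection neuron markers 10.7%. No 2 libraries shared more than 0.451% of the shorter barcode list.

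Nephrectomy library 1 stood apart. Its median nucleus held 1001 UMIs against 2008 to 5353 in the other libraries, only 947 of its 12230 kept nuclei passed the gate, and 18 of its 24 microglia-like nuclei drew between 70% and 80% of their gate-marker UMIs from microglia markers. In those nuclei the held-out microglia markers summed to 2047 CPM, the lowest of the 5 libraries, and the 5 held-out markers of striatal projection neurons to 1237 CPM, the highest. Sham library 1 held only 19 microglia-like nuclei and was left out of that class, which was therefore compared as 2 sham against 3 nephrectomy libraries. Endothelial-like nuclei were compared as 2 against 2 and oligodendrocyte precursor-like nuclei as 3 sham against 2 nephrectomy libraries.

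The members fell into separate patterns across the cell classes. Endosomal Tlr7, surface Tlr1 and the NF-kB subunit Rel were highest in microglia-like nuclei, with every microglia-like library above every library of the other 7 classes. Tlr3 and Irak2 were shared by astrocyte-like, microglia-like and endothelial-like nuclei and were low in neurons. Nfkbia was highest in endothelial-like nuclei, again clear of all other libraries. The kinases Map3k7 (TAK1), Chuk and Ikbkb were found in every library of every class. Of the 38 members, 21 had their highest mean in microglia-like nuclei, though only Tlr1, Tlr7, Tab2 and Rel did so with no overlap between libraries, and 8 had it in endothelial-like nuclei, of which only Nfkbia was clear of all others. The matching shares of all genes were not computed, so these counts are descriptions. Some of the highest means had a larger SD, such as Nfkbib in microglia-like (17.3 ± 34.1 CPM) and Ticam1 in endothelial-like nuclei (7.18 ± 8.98 CPM).

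**Figure D1:**
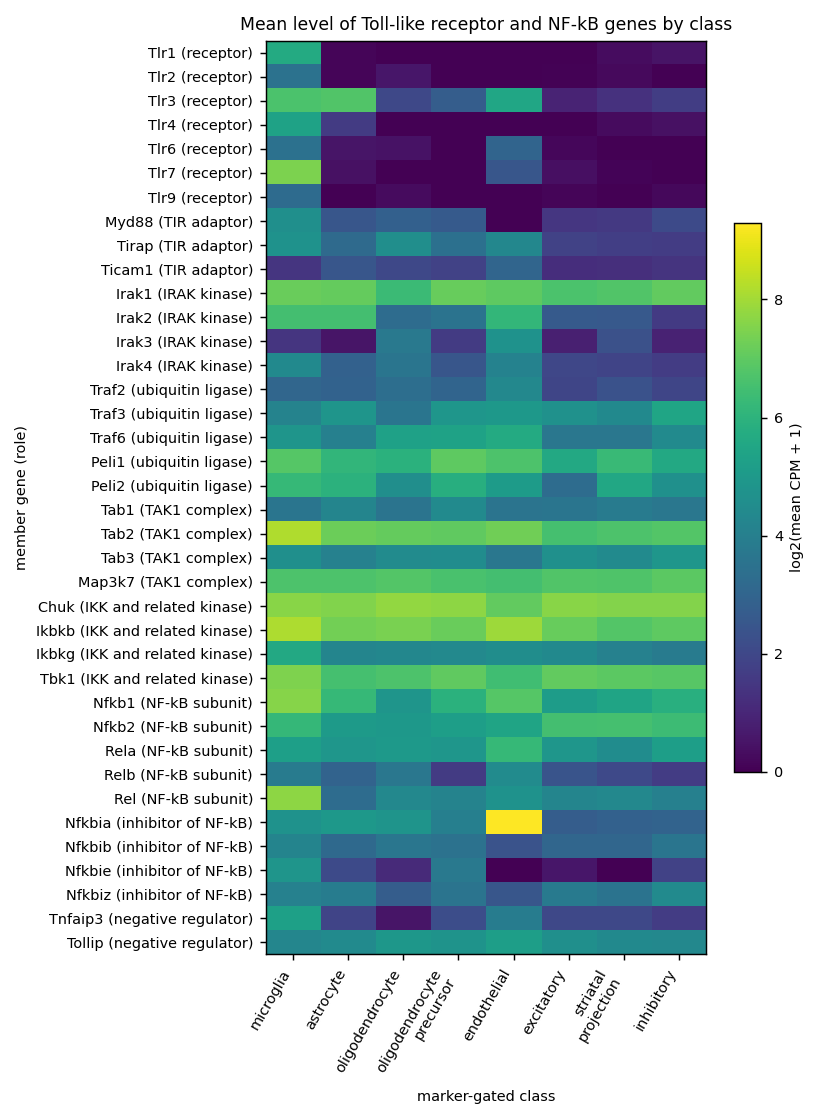
Colour gives log2(mean CPM + 1) over libraries for each of the 38 members (rows, with their role) in each of 8 marker-gated classes (columns). Tlr7 and Tlr1 stand out in the microglia column at 173 and 50.2 CPM, Nfkbia in the endothelial column at 624 CPM, and Tlr3 and Irak2 in both the microglia and the astrocyte columns.

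Each class was tested against the mean of the other classes with edgeR's quasi-likelihood test on summed UMIs, with a term for library, and a gene was called at an adjusted p (Benjamini-Hochberg over 12939 genes) under 0.05. The filter on low counts kept 32 members, and Tlr2, Tlr4, Tlr6, Tlr9, Ticam1 and Traf2 fell below it. A gene that is high in a single class passes that filter through that class. The counts of members that follow, and the p-value of such a gene in that class, are therefore descriptions. In microglia-like nuclei 11 members were higher and 0 lower, where 11.0% of all genes were higher and 13.9% lower. In astrocyte-like nuclei 9 were higher and 3 lower, against 25.6% and 13.6% of all genes. In oligodendrocyte-like nuclei 10 were higher and 7 lower (22.2% and 17.0% of all genes), in endothelial-like nuclei 5 and 2 (12.9% and 15.7%), and in oligodendrocyte precursor-like nuclei 2 and 0 (12.2% and 7.19%). Neurons went the other way: 6 members were higher and 11 lower in excitatory neuron-like nuclei (38.2% and 17.7% of all genes), 6 and 10 in striatal projection neuron-like nuclei (34.3% and 19.1%), and 5 and 10 in inhibitory neuron-like nuclei (30.8% and 12.8%).

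The median difference over the 32 members was 0.55 on the log2 scale in microglia-like nuclei, where the median of all genes was -0.28, and -0.29 in excitatory neuron-like nuclei, where the median of all genes was 0.15. Scaling with DESeq2 size factors moved the median of all genes by 0.24 in endothelial-like, 0.16 in microglia-like, -0.14 in excitatory neuron-like and -0.15 in striatal projection neuron-like nuclei. With that scaling the counts of higher and lower members became 12 and 0 in microglia-like, 5 and 1 in endothelial-like, 3 and 13 in excitatory neuron-like, 3 and 13 in inhibitory neuron-like, 4 and 10 in striatal projection neuron-like and 8 and 8 in oligodendrocyte-like nuclei. Over all genes it took the higher and lower calls from 4947 and 2294 to 3980 and 3078 in excitatory neuron-like nuclei and from 1420 and 1802 to 1634 and 1234 in microglia-like nuclei. Of the 97 calls of a member in a class, 54 held under every alternative setting that could test them. The calls given with a value below are among these unless a loss is named.

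Among the receptors, Tlr7, which senses single-stranded RNA in endosomes, stood in microglia-like nuclei at 233 and 128 CPM in sham libraries 2 and 3 and at 21.3, 272 and 210 CPM in nephrectomy libraries 1 to 3. The groups overlapped, and nephrectomy library 1 was far below the rest. Tlr7 had 55 UMIs in these 5 libraries and between 0 and 7 in each other class. With 0 UMIs in oligodendrocyte-like nuclei a level of up to 0.784 CPM is allowed (3 counts of the class total), and in inhibitory neuron-like nuclei up to 0.715 CPM. Both limits, like all intervals on pooled counts here, cover counting error only. The class difference passed the test in edgeR (adjusted p = 1.13e-28).

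Tlr1, which pairs with Tlr2 to bind bacterial lipopeptides, followed the same pattern at a depth of 16 UMIs. It stood at 15.6 and 42.5 CPM in sham and at 107, 34.0 and 52.5 CPM in nephrectomy microglia-like libraries. Libraries of other classes held 0 to 2.53 CPM, and the class difference passed the test (edgeR adjusted p = 3.64e-13). Tlr1 and Tlr7 passed the filter on low counts through microglia-like nuclei, so their p-values in this class are descriptions. Tlr2, Tlr6 and Tlr9, receptors for lipopeptides and for unmethylated DNA, gave 4, 5 and 3 UMIs in microglia-like nuclei and were not tested. Tlr4, the receptor for bacterial lipopolysaccharide, gave 17 UMIs there, 13 in astrocyte-like nuclei and 3 over the other 6 classes together with 0 in 4 of them.

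Tlr3, which senses double-stranded RNA and signals through Ticam1 instead of Myd88, was not a microglial gene alone. In astrocyte-like nuclei it stood at 157, 71.6 and 107 CPM in sham and at 105, 108 and 90.7 CPM in nephrectomy, from 596 UMIs. In microglia-like nuclei it ranged from 34.0 to 156 CPM (median 119), and in endothelial-like nuclei from 27.7 to 60.8 CPM, so the 3 classes overlapped library by library. In excitatory neuron-like nuclei it ranged from 0 to 2.01 CPM. The astrocyte level pooled over all 6 libraries was 89.4% of the microglia level, far above the 1.36% that the held-out microglia markers reached in astrocyte-like nuclei. Tlr3 was higher in astrocyte-like (log2 difference 4.31 ± 0.17 SE, edgeR adjusted p = 8.27e-37), microglia-like (3.90 ± 0.41, 5.98e-13) and endothelial-like nuclei (2.62 ± 0.64, 0.000720), and lower in excitatory neuron-like nuclei (-3.46 ± 0.47, 8.11e-10). The endothelial call was lost with a gate of 90% (log2 difference 2.17, adjusted p = 0.16). Tlr3 shares 698 bases with Gm45542 on the opposite strand, which gave at most 4 UMIs in any class.

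**Figure D2:**
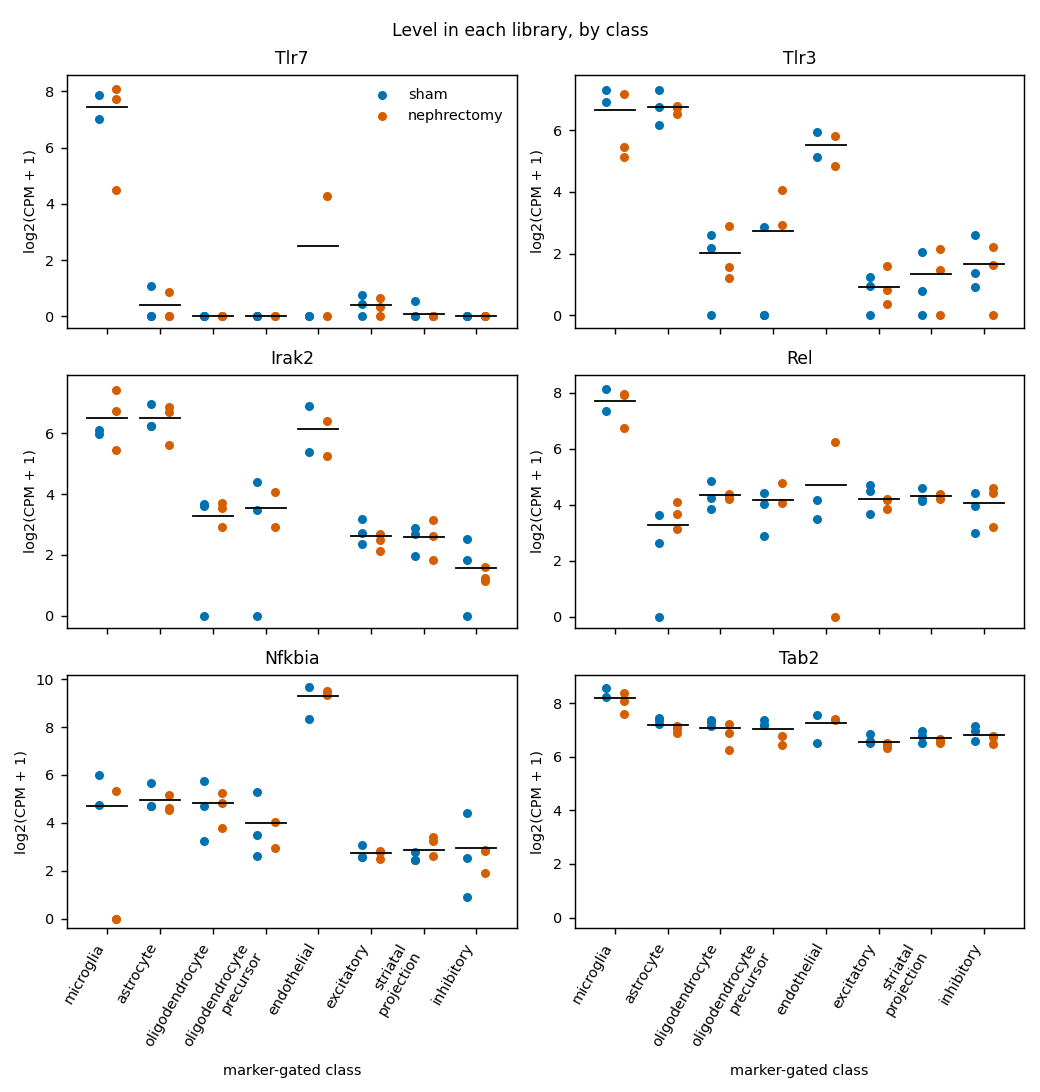
Points give log2(CPM + 1) of 6 members in each library (vertical axis) for 8 marker-gated classes (horizontal axis), blue for sham and orange for nephrectomy, and the black line marks log2(mean CPM + 1). Tlr7 and Rel are high in microglia-like nuclei, Tlr3 and Irak2 in 3 classes, and Nfkbia in endothelial-like nuclei at 324 to 812 CPM.

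The adaptors were sparse. Myd88, the adaptor that most receptors use, stood in microglia-like nuclei at 31.1 and 25.5 CPM in sham and at 0, 34.0 and 26.2 CPM in nephrectomy, from 8 UMIs, and passed the class test (edgeR adjusted p = 0.00250). It lies within the bounds of Slc22a14 on the same strand and overlaps Acaa1a on the other, so its counts are uncertain. Tirap, which brings Myd88 to the surface receptors, was higher in oligodendrocyte-like nuclei. It stood there at 22.4, 19.7 and 34.5 CPM in sham and at 6.49, 25.8 and 29.0 CPM in nephrectomy. Its highest mean was in microglia-like nuclei (25.7 ± 20.3 CPM), where it was not called. In excitatory neuron-like nuclei its mean was 2.52 ± 0.892 CPM (SD, n = 6). The oligodendrocyte difference of Tirap was 2.12 ± 0.27 on the log2 scale (edgeR adjusted p = 1.97e-10), and the gene shares bases with Gm39318 and Srpr on the other strand. Ticam1, the adaptor of Tlr3, gave 1 UMI in microglia-like and 26 in astrocyte-like nuclei, too few to pass the filter.

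The 4 IRAK kinases, which carry the signal from Myd88, did not share a pattern. Irak2 followed Tlr3: it stood at 75.0, 122 and 73.9 CPM in sham and 48.4, 115 and 103 CPM in nephrectomy astrocyte-like libraries, at 42.6 to 170 CPM in microglia-like and at 37.2 to 118 CPM in endothelial-like libraries. In inhibitory neuron-like nuclei its mean was 1.99 ± 1.62 CPM. Its difference was 3.19 ± 0.15 in astrocyte-like nuclei (log2, edgeR adjusted p = 2.60e-35) and 2.41 ± 0.40 in microglia-like nuclei (6.52e-07), the latter lost with a gate of 90% (1.07, adjusted p = 0.48). In endothelial-like nuclei the difference was 2.02 ± 0.50 (adjusted p = 0.000746), and it lost its call without sham library 2 (1.46, adjusted p = 0.058). Irak2 shares 960 bases with Gm43964 on the opposite strand, which gave 60 UMIs in astrocyte-like nuclei (9.02 CPM), 8 in microglia-like nuclei (27.1 CPM), 0 in endothelial-like nuclei and at most 4 in any other class. The counts of Irak2 are therefore uncertain where strand was not used.

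Irak3, a catalytically weak kinase known as a brake on the pathway, was highest in endothelial-like (25.7 ± 23.4 CPM, n = 4) and oligodendrocyte-like nuclei (12.3 ± 8.01 CPM, n = 6) and gave 1 UMI in microglia-like nuclei. Its oligodendrocyte difference was 2.85 ± 0.37 (log2, edgeR adjusted p = 1.30e-10). Irak3 shares 541 bases with Tmbim4 on the opposite strand, which stood highest in endothelial-like nuclei (101 CPM) and at 35.8 CPM in oligodendrocyte-like nuclei. Irak4, the kinase that Myd88 recruits directly, stood in oligodendrocyte-like nuclei at 11.2 ± 6.16 CPM and was higher there by 1.00 ± 0.32 (edgeR adjusted p = 0.00835). That call was lost without sham library 2 (0.78, adjusted p = 0.088) and with a gate of 90% (1.07, adjusted p = 0.11). The means of Irak4 in microglia-like (20.3 ± 13.1 CPM) and endothelial-like nuclei (16.5 ± 12.5 CPM) were higher, but it was not called there. Irak4 shares 3865 bases with Twf1 on the opposite strand, which also stood higher in oligodendrocyte-like nuclei (72.3 CPM) than in the other classes (30.8 to 62.3 CPM). Irak1 was found in every class, from 79.9 ± 25.2 CPM in oligodendrocyte-like to 143 ± 37.0 CPM in microglia-like nuclei, and the libraries of these classes overlapped. It was lower in oligodendrocyte-like nuclei (log2 difference -0.50 ± 0.11, edgeR adjusted p = 0.000139), a call that was lost with at least 1000 genes per nucleus (-0.18, adjusted p = 0.18), and higher in astrocyte-like nuclei (0.37 ± 0.09, adjusted p = 0.000586).

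Among the ubiquitin ligases, Traf6, which joins the ubiquitin chains that activate TAK1, was higher in oligodendrocyte-like nuclei (38.7 ± 15.0 CPM, log2 difference 0.99 ± 0.19, edgeR adjusted p = 8.20e-06). It was lower in excitatory neuron-like nuclei (9.76 to 13.7 CPM over 6 libraries, -0.91 ± 0.18, 1.24e-05). Its means in endothelial-like (50.1 ± 43.1 CPM) and oligodendrocyte precursor-like nuclei (39.7 ± 12.2 CPM) were above the oligodendrocyte mean, but it was not called there. Traf3, which acts in the interferon branch and restrains the alternative NF-kB branch, was higher in inhibitory neuron-like nuclei: 42.3, 50.6 and 39.9 CPM in sham and 47.6, 41.4 and 38.5 CPM in nephrectomy. The Traf3 difference was 0.96 ± 0.17 (edgeR adjusted p = 9.01e-07), and Traf3 overlaps 4930595D18Rik on the other strand. Peli2, a Pellino ligase that acts on IRAK kinases, had its highest means in microglia-like (74.5 ± 43.1 CPM) and astrocyte-like nuclei (62.0 ± 8.38 CPM). It was called higher in astrocyte-like nuclei (log2 difference 1.17 ± 0.14, edgeR adjusted p = 1.78e-12). Among neurons, Peli2 stood at 46.3 ± 4.59 CPM in striatal projection neuron-like and 8.84 ± 2.53 CPM in excitatory neuron-like nuclei with no overlap between them (39.9 to 53.9 against 5.42 to 12.7 CPM). The striatal projection neuron call (0.71 ± 0.13, edgeR adjusted p = 2.36e-06) was lost with a gate of 90% (0.67, adjusted p = 0.051). Peli1 had its highest mean in oligodendrocyte precursor-like nuclei (127 ± 20.9 CPM), a call that was lost without sham library 3 (log2 difference 0.46, adjusted p = 0.23, against 0.55 and 0.042) without nephrectomy library 2 (0.50, adjusted p = 0.10) and with no filter on low counts (0.52, adjusted p = 0.079).

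The TAK1 complex was flatter. Tab2, the ubiquitin-binding adaptor of TAK1, stood in microglia-like nuclei at 374 and 298 CPM in sham and at 192, 272 and 328 CPM in nephrectomy, above the highest library of any other class (186 CPM). Its difference there was 0.94 ± 0.17 on the log2 scale (edgeR adjusted p = 2.87e-06). The mean level of Map3k7, the kinase itself, lay between 89.8 ± 36.9 CPM in endothelial-like and 122 ± 22.0 CPM in inhibitory neuron-like nuclei, and its calls in oligodendrocyte-like nuclei and the 3 neuron classes (log2 differences of 0.27 to 0.30) were all lost with DESeq2 size factors (0.12 to 0.22). Tab1 passed in no class, as did Nfkbib and the IKK subunit Ikbkg.

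Among the IKK kinases, Chuk (IKK alpha) was higher in oligodendrocyte-like nuclei, at 140, 301 and 207 CPM in sham and 210, 236 and 209 CPM in nephrectomy (log2 difference 0.50 ± 0.09, edgeR adjusted p = 4.76e-07). It was lower in endothelial-like nuclei (134 ± 56.0 CPM, -1.12 ± 0.23, adjusted p = 5.02e-05). Ikbkb (IKK beta) had its highest mean in microglia-like nuclei (281 ± 67.7 CPM). Its call there (0.46 ± 0.16, edgeR adjusted p = 0.024) was lost without sham library 3 (adjusted p = 0.12) without nephrectomy library 3 (adjusted p = 0.066), with no filter (adjusted p = 0.086) and with a gate of 90% (adjusted p = 0.33). Tbk1, an IKK-related kinase of the interferon branch, was higher in excitatory neuron-like nuclei (132 ± 28.9 CPM, 0.43 ± 0.08, edgeR adjusted p = 3.49e-06) and had an overlapping mean of 180 ± 67.0 CPM in microglia-like nuclei, where it did not pass the test.

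The NF-kB subunits divided by class. Rel (c-Rel), a subunit known from immune cells, stood in microglia-like nuclei at 280 and 162 CPM in sham and at 107, 238 and 249 CPM in nephrectomy, above all libraries of the other classes, the highest of which held 74.3 CPM. In astrocyte-like nuclei Rel ranged from 0 to 16.1 CPM. The microglia difference was 3.14 ± 0.28 on the log2 scale (edgeR adjusted p = 3.24e-17). Nfkb1, the precursor of p50, followed at 296 and 196 CPM in sham and at 64.0, 272 and 131 CPM in nephrectomy microglia-like libraries. Nfkb1 was higher there by 1.39 ± 0.23 (edgeR adjusted p = 3.53e-07, lost with a gate of 90%, where it was 1.18 at an adjusted p of 0.056). It was lower in oligodendrocyte-like nuclei (27.6 ± 6.42 CPM, -1.04 ± 0.15, adjusted p = 6.71e-09).

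Rela (p65), the main activating subunit, had its highest mean in endothelial-like nuclei: 84.5 and 60.8 CPM in sham and 55.4 and 92.9 CPM in nephrectomy. That difference of 1.16 ± 0.39 (log2, edgeR adjusted p = 0.018) lost its call when sham library 2 (1.04, adjusted p = 0.10), sham library 3 (1.22, adjusted p = 0.051) or nephrectomy library 3 (1.07, adjusted p = 0.085) was left out, with no filter (1.06, adjusted p = 0.063) and with a gate of 90% (0.58, adjusted p = 0.80). Relb, a subunit of the alternative branch, was higher in oligodendrocyte-like nuclei (11.8 ± 7.71 CPM, 1.18 ± 0.34, edgeR adjusted p = 0.00348). Its means in endothelial-like (21.3 ± 15.8 CPM) and microglia-like nuclei (13.4 ± 8.06 CPM) were higher, but it was not called there.

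Nfkb2, the precursor of p52, was the only NF-kB subunit gene called higher in the neuron classes. It was called lower in oligodendrocyte-like and astrocyte-like nuclei. In microglia-like, endothelial-like and oligodendrocyte precursor-like nuclei it was not called. Its mean was 90.6 ± 19.0 CPM in excitatory, 92.0 ± 22.5 CPM in striatal projection and 82.3 ± 14.7 CPM in inhibitory neuron-like nuclei, against 29.9 ± 16.3 CPM in oligodendrocyte-like and 32.1 ± 13.5 CPM in astrocyte-like nuclei. The differences were 1.07 ± 0.10, 1.12 ± 0.11 and 0.79 ± 0.13 on the log2 scale (edgeR adjusted p = 1.58e-16, 2.24e-16 and 1.28e-07). Nfkb2 shares 299 bases with Psd, a gene on the opposite strand whose product works at synapses. Psd was also highest in the 3 neuron classes, at 111 ± 8.57, 115 ± 6.04 and 107 ± 9.52 CPM, and stood between 32.0 and 65.6 CPM elsewhere. The order of the other classes differed: Psd was lowest in endothelial-like nuclei (32.0 CPM) and Nfkb2 in oligodendrocyte-like nuclei. A longer stretch of Nfkb2, 1292 bases, is shared with AC114539.1, also on the opposite strand. AC114539.1 was not highest in the neuron classes. It stood at 1.85, 3.29 and 2.17 CPM in excitatory, striatal projection and inhibitory neuron-like nuclei and at 24.1 CPM in endothelial-like nuclei. The sources do not state whether counting used strand, so reads of Nfkb2 and of either partner in the shared bases cannot be told apart.

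**Figure D3:**
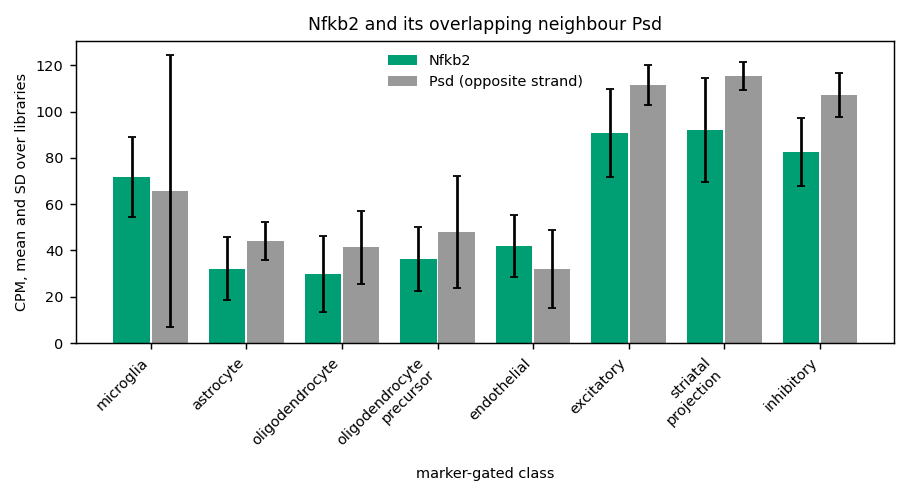
Bars give the mean CPM over libraries, with the SD as error bar, of Nfkb2 (green) and of Psd (grey), which overlaps it on the opposite strand, in 8 marker-gated classes. Nfkb2 and Psd are both highest in the 3 neuron classes, at 82.3 to 92.0 and at 107 to 115 CPM.

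The inhibitors of NF-kB were the most divided group. Nfkbia (I kappa B alpha), which holds NF-kB dimers in the cytoplasm and is itself induced by them, stood in endothelial-like nuclei at 812 and 324 CPM in sham and at 637 and 725 CPM in nephrectomy. The next class, astrocyte-like nuclei, held 30.1 ± 10.7 CPM, and no library of another class exceeded 62.3 CPM. Excitatory neuron-like nuclei held 5.68 ± 1.00 CPM. Nfkbia was higher in endothelial-like nuclei by 4.97 ± 0.23 on the log2 scale (edgeR adjusted p = 2.51e-35). It was lower in excitatory (-1.85 ± 0.22, adjusted p = 5.58e-12), inhibitory (-2.10 ± 0.31, 1.89e-08) and striatal projection neuron-like nuclei (-1.67 ± 0.24, 5.24e-09). Endothelial-like nuclei numbered 222 in the 4 libraries, so these levels rest on 142 UMIs.

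Nfkbie (I kappa B epsilon) gave 9 UMIs in microglia-like and 7 in oligodendrocyte precursor-like nuclei, with means of 27.4 ± 16.4 and 12.6 ± 11.8 CPM, and both classes passed the test (edgeR adjusted p = 1.11e-05 and 0.00203). Nfkbiz, an atypical nuclear inhibitor that co-activates a subset of NF-kB targets, was higher in inhibitory neuron-like nuclei (20.6 ± 6.87 CPM, log2 difference 1.14 ± 0.28, adjusted p = 0.000422). Tnfaip3 (A20), an enzyme that removes ubiquitin chains and ends the signal, stood in microglia-like nuclei at 62.3 and 0 CPM in sham and 21.3, 68.1 and 39.4 CPM in nephrectomy, from 10 UMIs. Its microglia difference passed (edgeR adjusted p = 0.000458), and it was lower in oligodendrocyte-like nuclei, with 2 UMIs in all (adjusted p = 0.000938). Tollip, which restrains IRAK1, had means from 18.0 ± 13.7 CPM in microglia-like to 36.2 ± 19.5 CPM in endothelial-like nuclei. It was higher in oligodendrocyte-like nuclei (29.5 ± 15.5 CPM, log2 difference 0.51 ± 0.20, edgeR adjusted p = 0.037), a call that was lost with DESeq2 size factors (0.43, adjusted p = 0.086), without sham library 1 (0.47, adjusted p = 0.072) and without nephrectomy library 2 (0.40, adjusted p = 0.18).

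The 300 bases around the start site were searched on both strands for the kappa B site GGGANTTTCC, the sequence that NF-kB dimers bind, in the RefSeq promoters of build GRCm38.p6 (250 bases before the start to 50 after). Of the members, 31 matched a promoter entry, and 4 of these held the motif: Tlr3, Nfkbia, Nfkb2 and Map3k7. Over all 27025 genes with an entry the share was 0.466%. The looser form GGGNNNNNCC, which contains the strict one, was found in 25 of the 31 members and in 53.5% of all genes. The 4 promoters are shown because their genes had different class patterns, endothelial for Nfkbia, astrocyte and microglia for Tlr3, neuronal for Nfkb2 and nearly flat for Map3k7. Each is written 5' to 3' on the gene's own strand, with the match in capitals. 2 of the matches read as the reverse complement, GGAAATTCCC.
Tlr3, chr8:45410331-45410630, minus strand, match at -211 from the start: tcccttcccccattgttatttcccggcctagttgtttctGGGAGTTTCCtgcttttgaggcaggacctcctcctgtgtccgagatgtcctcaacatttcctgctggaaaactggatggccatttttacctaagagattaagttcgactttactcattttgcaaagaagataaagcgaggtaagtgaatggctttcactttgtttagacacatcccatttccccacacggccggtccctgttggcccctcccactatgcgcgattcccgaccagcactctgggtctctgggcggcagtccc
Nfkbia, chr12:55492598-55492897, minus strand, match at -29: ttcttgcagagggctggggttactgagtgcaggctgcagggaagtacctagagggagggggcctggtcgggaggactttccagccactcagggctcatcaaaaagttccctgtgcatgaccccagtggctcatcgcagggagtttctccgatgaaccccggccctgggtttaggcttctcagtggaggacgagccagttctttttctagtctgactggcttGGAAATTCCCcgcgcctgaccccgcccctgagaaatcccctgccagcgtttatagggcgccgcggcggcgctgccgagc
Nfkb2, chr19:46305445-46305744, plus strand, match at 11: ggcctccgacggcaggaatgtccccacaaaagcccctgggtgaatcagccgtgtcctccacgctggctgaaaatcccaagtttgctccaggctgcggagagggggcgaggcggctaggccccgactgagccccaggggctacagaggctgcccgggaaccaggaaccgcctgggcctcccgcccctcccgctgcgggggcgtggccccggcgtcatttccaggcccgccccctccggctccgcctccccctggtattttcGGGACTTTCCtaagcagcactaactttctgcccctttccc
Map3k7, chr4:31963857-31964156, plus strand, match at -92: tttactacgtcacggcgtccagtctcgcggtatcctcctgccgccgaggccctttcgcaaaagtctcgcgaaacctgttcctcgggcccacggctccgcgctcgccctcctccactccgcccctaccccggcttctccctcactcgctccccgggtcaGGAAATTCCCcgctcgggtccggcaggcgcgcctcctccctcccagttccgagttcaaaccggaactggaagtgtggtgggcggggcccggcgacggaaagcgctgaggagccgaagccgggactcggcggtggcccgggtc
The match is a description of these letters, not evidence of binding, and nothing follows from its lack in the other promoters searched.

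Genes of the pathway outside the members were taken from 4 lists. Of 14 other receptors and co-receptors, 6 were tested and 4 were higher in microglia-like nuclei with 0 lower: Unc93b1, which carries the endosomal receptors to their compartment (log2 difference 6.25 ± 0.18), Ly86 (7.97 ± 0.25) and Cd180 (6.41 ± 0.36), a receptor pair related to Tlr4, and Cd14 (7.21 ± 0.75), the lipopolysaccharide co-receptor. Of 23 other signal relays, 21 were tested and 6 were higher there with 0 lower, where 11.0% of all genes were higher, among them the transcription factor Irf5 (5.70 ± 0.49). Relays were also called in other classes. Of the 21, 8 were higher in excitatory (38.2% of all genes), 7 in striatal projection (34.3%) and 6 in inhibitory neuron-like nuclei (30.8%), and 6 in astrocyte-like nuclei (25.6%). These counts of higher relays were near the shares of all genes. In the same classes 3, 6, 3 and 1 were lower (17.7%, 19.1%, 12.8% and 13.6% of all genes). Of 13 other restraints, 10 were tested and 2 were higher, Zc3h12a (4.51 ± 0.88) and Otulin (1.27 ± 0.29). All of these passed in edgeR, with adjusted p-values from 7.69e-52 to 0.010. Where a gene is near 0 in the other classes, the size of such a fitted difference depends on the count added before taking logs and gives no bound.

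Of 20 target genes of NF-kB, 8 were tested. As in the other lists, a gene high in a single class can pass the filter through that class, so these counts are descriptions. In microglia-like nuclei 2 were higher, Icam1 (4.97 ± 0.56) and Bcl2a1b (8.25 ± 0.67), and Sod2 was lower (-1.76 ± 0.32), against 11.0% and 13.9% of all genes. In endothelial-like nuclei 6 of the 8 were higher and 0 lower, against 12.9% and 15.7% of all genes. The 6 were Ier3 (4.14 ± 0.36, edgeR adjusted p = 5.73e-18), Icam1 (4.05 ± 0.80), Vcam1 (3.27 ± 0.57), Gadd45b (2.23 ± 0.64), Bcl2l1 (1.55 ± 0.30) and Csf1 (1.39 ± 0.52, adjusted p = 0.035). Icam1 and Vcam1 are adhesion proteins of the vessel wall. The single immunoglobulin receptor Sigirr, a restraint on Toll-like receptors, was higher in endothelial-like nuclei by 8.11 ± 0.84 (adjusted p = 5.25e-13).

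No member passed the test of nephrectomy against sham in any class. In all 8 classes together 120 tests of 28 members were made with edgeR's quasi-likelihood test, 40 with a positive and 80 with a negative log2 fold change (nephrectomy minus sham), and 4 had an unadjusted p under 0.05. The lowest adjusted p of a member was 0.849. The tests were not independent, since all classes came from the same 6 libraries. Over all genes, 0 passed in astrocyte-like, excitatory, inhibitory and striatal projection neuron-like, oligodendrocyte-like and oligodendrocyte precursor-like nuclei, 0.125% (2 of 1594) in microglia-like nuclei and 0.179% (2 of 1118) in endothelial-like nuclei. At an unadjusted p under 0.05 stood 751 of 13232 genes in excitatory neuron-like, 483 of 10308 in astrocyte-like, 502 of 9467 in inhibitory neuron-like, 529 of 11217 in striatal projection neuron-like, 357 of 7963 in oligodendrocyte-like and 239 of 4047 in oligodendrocyte precursor-like nuclei. DESeq2's Wald test also called 0 members. Of the pathway genes outside the members, 40 were tested in 165 tests over the classes and 0 passed, with 4 at an unadjusted p under 0.05.

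In microglia-like nuclei 9 members had enough counts to be tested, with 3 positive and 6 negative differences. The log2 difference of Nfkb1 was -0.65 (95% interval -1.68 to 0.37), with 42 UMIs in sham and 21 in nephrectomy libraries. Chuk stood at 0.31 (-0.67 to 1.29), Irak1 at -0.32 (-1.36 to 0.71), Peli1 at -0.20 (-1.62 to 1.21), Tab2 at -0.20 (-1.0 to 0.60), Ikbkb at -0.16 (-0.97 to 0.65), Tbk1 at -0.12 (-1.12 to 0.88), Rel at 0.01 (-0.90 to 0.91) and Tlr7 at 0.01 (-1.05 to 1.07), all at an edgeR adjusted p of 0.999. Except for Nfkb1, the intervals span at least a change of 0.6 in both directions, so changes of that size are not excluded. For Nfkb1 a fall of that size is not excluded either. Of the 9 members, 1 (Irak1) had groups that did not overlap, 187 and 162 CPM in sham against 107, 102 and 157 CPM in nephrectomy, where 19.2% of all genes tested in this class had such groups. Without nephrectomy library 1, in which Tlr7, Nfkb1 and Tbk1 were lowest, the differences were 0.46 for Tlr7, -0.39 for Nfkb1, 0.20 for Tbk1 and 0.24 for Rel.

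**Figure D4:**
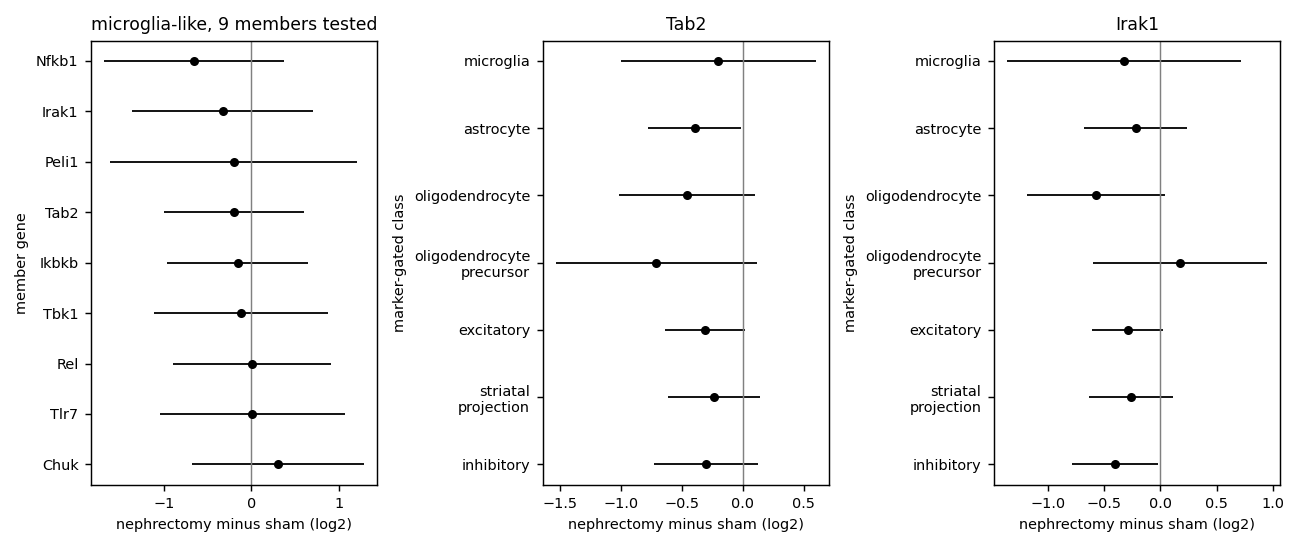
Points give the log2 fold change of nephrectomy minus sham from edgeR with its 95% interval, for the 9 members tested in microglia-like nuclei (left), and for Tab2 (middle) and Irak1 (right) in the 7 classes in which each was tested. Tab2 lies below 0 in 7 of 7 classes and Irak1 in 6 of 7, and no adjusted p is under 0.05.

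The other members that were to be followed in microglia-like nuclei had too few counts for the test. Tlr4 stood at 77.8 and 68.0 CPM in sham and at 0, 0 and 52.5 CPM in nephrectomy, from 13 and 4 UMIs, and Tlr6 gave 5 UMIs in sham and 0 in nephrectomy. Of the 29 members below the filter, 24 had at least 5 UMIs in the 5 libraries, a minimum chosen after the values were seen. Tlr4, Tlr6, Tab3, Map3k7 and Nfkbib were lower in every nephrectomy library than in every sham library, and Tollip was higher, so 6 of the 24 had groups that did not overlap, where 17.0% of the 8383 genes below the filter with at least 5 UMIs had such groups. Of the 6 listed markers of monocytes and neutrophils, 5 were at 0 in both groups, so the list rests on Lyz2 alone. Lyz2 gave 72 UMIs in sham (332 to 514 CPM per library) and 3 in nephrectomy (0 to 26.2 CPM). Border macrophage markers, 7 in number, summed to between 8.51 and 311 CPM in sham with none at 0, and to between 0 and 128 CPM in nephrectomy with 5 at 0. Whether such cells were among these nuclei, and their part in the Tlr4 and Tlr6 counts, was not tested. Lyz2, with Slpi, a protease inhibitor secreted by neutrophils and other cells, made up the 2 genes called in this class, and Slpi went from 296 and 595 CPM in sham to 0 in all 3 nephrectomy libraries.

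Tlr3 stood at 156 and 119 CPM in sham and at 42.6, 34.0 and 144 CPM in nephrectomy, and the groups overlapped. Nfkbia gave 7 UMIs in sham and 3 in nephrectomy, Myd88 5 and 3, Irak4 4 and 3, Rela 7 and 5, Tnfaip3 4 and 6, Nfkbiz 3 and 2, and Tlr2 2 and 2. Map3k7 gave 21 UMIs in sham and 14 in nephrectomy, 114 ± 7.15 CPM (n = 2) against 95.8 ± 15.0 CPM (n = 3). In the pathway lists, Cyld, which removes ubiquitin chains, had the lowest p in this class (log2 difference 0.66 ± 0.45, adjusted p = 0.999). It was followed by Itch (-0.38 ± 0.43) among the restraints, Hsp90b1 (-0.22 ± 0.40), Cd180 (-0.18 ± 0.47) and Unc93b1 (0.09 ± 0.29) among the receptors, and Cul1 (0.22 ± 0.55) and Irf3 (0.04 ± 0.48) among the relays. Tax1bp1 stood at 0.15 ± 0.45, and no target had enough counts.

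In excitatory neuron-like nuclei 25 members were tested, 11 with a positive and 14 with a negative difference, with a median of -0.01 on the log2 scale, against 0.00 over all genes. Tab2 stood at 116, 91.4 and 95.5 CPM in sham and at 89.9, 79.0 and 85.3 CPM in nephrectomy, and the groups did not overlap. This was the only member of the 25 whose groups did not overlap, where 11.8% of all genes had such groups. Its log2 difference was -0.31 (95% interval -0.64 to 0.02, edgeR adjusted p = 0.849). Irak1 stood at 116, 118 and 94.4 CPM in sham and 91.2, 99.1 and 87.6 CPM in nephrectomy, a difference of -0.29 (-0.61 to 0.03, adjusted p = 0.849). The next in order of p were Rela (-0.28, adjusted p = 0.919), Map3k7 (-0.20, 0.926), Peli2 (0.35, 0.928) and Irak2 (-0.41, 0.932). The differences in microglia-like and excitatory neuron-like nuclei were set against each other in an interaction fit over 12342 genes, of which 0.00810% (1 gene, Fn1) passed and 0 members did. Among the 32 members in that fit, 1 (Tab3) had an unadjusted p under 0.05, and 9 differences were positive and 23 negative, with a median of -0.41 against -0.18 over all genes. These signs and the median are descriptions. They include members with too few counts for an estimate, such as Tlr4 (-1.81, standard error 1811330) and Tlr1 (0.59, standard error 13461.7).

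Tab2 was negative in all 7 classes in which it was tested, from -0.20 in microglia-like to -0.71 in oligodendrocyte precursor-like nuclei, and Irak1 in 6 of 7. Neither passed in any class. Map3k7 was negative in 6 of 6, Rela in 5 of 5 and Tab1 in 3 of 3, and Tollip was positive in 5 of 5. Because the classes share their libraries, these are not independent repeats. The 4 tests with an unadjusted p under 0.05 were named after their values were seen. They were Tab1 (log2 difference -1.11 ± 0.46) and Tab2 (-0.40 ± 0.18) in astrocyte-like nuclei, both with an edgeR adjusted p of 0.965, and Irak1 (-0.40 ± 0.18) and Map3k7 (-0.41 ± 0.19) in inhibitory neuron-like nuclei, both at 0.920. Tab1 stood in astrocyte-like nuclei at 41.1, 16.6 and 16.4 CPM in sham and at 14.1, 9.13 and 10.1 CPM in nephrectomy. Its groups did not overlap, and without sham library 1 the difference was -0.63.

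Groups that did not overlap were found for 2 of 21 members in astrocyte-like nuclei (Tab1 and Tab2, 10.4% of all genes), for 2 of 8 in oligodendrocyte precursor-like nuclei (Tab2 and Peli2, 23.5%), for 1 of 18 in inhibitory neuron-like nuclei (Irak1, 10.0%), for 1 of 20 in striatal projection neuron-like nuclei (Map3k7, 9.99%), for 0 of 17 in oligodendrocyte-like nuclei (10.6%) and for 0 of 2 in endothelial-like nuclei (27.4%). These shares were near those of all genes. In endothelial-like nuclei the 2 members tested were Nfkbia and Ikbkb, and the log2 difference of Nfkbia was 0.32 (95% interval -0.62 to 1.25, edgeR adjusted p = 0.999). The 2 genes called in that class, Hbb-bs and Hba-a1, encode haemoglobin chains, and both were lower in nephrectomy.

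Members were also set against each other. Of 32 planned combinations of a pair and a class, 10 had a mean of at least 10 UMIs per library for both genes and were computed over the 6 libraries on log2(CPM + 1), and 0 passed (exact permutation tests, 2-sided, adjusted over the 10). At an unadjusted p under 0.05 stood 0. The pair with the lowest p was Chuk and Ikbkb in excitatory neuron-like nuclei, with Pearson's r 0.74 (exact permutation p = 0.082, adjusted p = 0.819) and Spearman's rho 0.49 (exact permutation p = 0.356, adjusted 0.919), and r 0.52 without the 2 libraries farthest from the median. Map3k7 and Tab2 gave r 0.62 (exact permutation p = 0.201, adjusted 0.857) and rho 0.26 (exact permutation p = 0.658, adjusted 0.919), with r -0.80 without those 2 libraries, so the relation rests on them. The smallest p that 6 libraries can give is 0.001389.

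Across classes within a library, the correlation describes shared class patterns and has no test, since the points share a library and its depth. Over 25 members with at least 200 UMIs there were 300 pairs and 6 to 8 classes per library. The pair most alike was Tlr3 and Irak2, with a median r of 0.85 over the 6 libraries (0.67 to 0.98). Tab2 and Ikbkb followed at 0.78 (0.62 to 0.90). The median over all 300 pairs was 0.05, and 26 pairs were positive and 8 negative in all 6 libraries.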

How the data were processed

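The authors deposited one matrix of UMI counts per library, as whole numbers of UMIs per gene and nucleus. Per the labels' protocols, mapping was to mm10 and counted intronic reads. For Cell Ranger the version is 3.0 per the labels' protocols, 2.1.1 per the submitters' processing notes and 6.0.1 per the file headers, and which applies is not known. Whether counting used strand is not given in the sources used here. No deposited barcode held fewer than 500 UMIs. Nuclei below 500 genes or above 5% mitochondrial UMIs were dropped, and the rest gated on marker UMIs. There was no clustering and no doublet caller, so doublets of 1 class remain, as do mixed nuclei with up to 30% of their gate-marker UMIs from other classes. UMIs were summed per library and class with at least 20 nuclei, and tested with edgeR 4.0.16 in R 4.3.3 (TMM, filterByExpr, robust quasi-likelihood, 2-sided, Benjamini-Hochberg over all genes tested, threshold 0.05). DESeq2 1.42.0 served for alternatives. Scripts were checked on simulated data. A level is CPM, as mean ± SD over libraries, and a log2 difference has its standard error. The 95% intervals use the t distribution of the fit.

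The members and lists were chosen with earlier results of these data known. Members are named for nephrectomy against sham if they passed, if they had one of the 6 lowest p-values in microglia-like or excitatory neuron-like nuclei, or if they were among 15 members fixed for microglia-like nuclei, and up to 3 pathway genes per list are named by lowest p in that class. Other names were chosen after their values were seen. Sham and nephrectomy libraries share replicate numbers, but the labels state no pairing. Same-numbered libraries had correlations between -0.24 and 0.20 over 5 classes, so no block was used, though these cannot exclude a pairing. Gene bounds came from GENCODE M21 (GRCm38). The alternatives were DESeq2 size factors, the DESeq2 Wald test, no filter on low counts, a replicate block, a term marking the 2 longest barcode lists or the other 4 libraries alone, gates of 90% and 50%, at least 1000 genes per nucleus, a pseudocount of 10 for correlations, and each library left out. At least 10 nuclei per library was added after seeing the data.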

Additional observations from a re-analysis of the deposited data

Results flagged for a closer look

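Fn1, which encodes fibronectin and is no member of the pathway, was the gene whose nephrectomy effect differed between microglia-like and excitatory neuron-like nuclei by a test of the difference itself (log2 -6.17 ± 1.31, edgeR adjusted p = 0.030). In microglia-like nuclei it gave 45 and 14 UMIs in sham libraries 2 and 3 and 0, 0 and 1 in nephrectomy libraries 1 to 3. In excitatory neuron-like nuclei it stood between 2.09 and 2.35 CPM in sham and between 0.850 and 6.71 CPM in nephrectomy. Without sham library 2 the difference was -4.65 and without nephrectomy library 1 it was -4.40, both at an adjusted p of 1, and without nephrectomy libraries 2 and 3 it was -5.90 and -12.5 (adjusted p = 0.651 and 0.080). Border macrophage markers in the same nuclei, given with Tlr4 in the report, summed to between 8.51 and 311 CPM in sham. In nephrectomy they summed to between 0 and 128 CPM, so the groups overlapped, and their part was not tested.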

How the results depend on the processing

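No member was called for nephrectomy against sham, or for the difference between classes, under any alternative. Of 97 class calls of members, 54 held throughout, and leaving out a library kept 515 of the single results and lost 61, while the other settings kept 280, lost 62 and reversed 1. The counts of members called by class moved with a gate of 90% to 4 in endothelial-like (from 7), 4 in microglia-like (from 11), 9 in oligodendrocyte-like (from 17) and 6 in striatal projection neuron-like nuclei (from 16). With at least 1000 genes per nucleus they were 11 in oligodendrocyte-like and 4 in oligodendrocyte precursor-like nuclei (from 2), and with no filter 1 in the latter. Leaving out each library gave 4 to 8 members in endothelial-like nuclei (4 without sham library 2) and 1 to 2 in oligodendrocyte precursor-like nuclei (1 without nephrectomy library 2 or sham library 3).

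The single gene called for the difference between classes became 0 genes with DESeq2 size factors, with a gate of 90% and with no filter, and 0 to 1 when a library was left out (0 without nephrectomy library 1, 2 or 3 or sham library 2). The number of genes called for nephrectomy against sham was 21 in excitatory, 6 in inhibitory and 2 in striatal projection neuron-like, 3 in oligodendrocyte precursor-like and 4 in endothelial-like nuclei with no filter, 1 in astrocyte-like nuclei with a gate of 90%, and 2 in oligodendrocyte precursor-like nuclei with at least 1000 genes. In microglia-like nuclei it was 0 with a gate of 50% or at least 10 nuclei per library, and 26 with a term that marks sham library 3 and nephrectomy library 1, whose barcode lists were longest, which gave 0 in endothelial-like nuclei. Leaving out each library gave 0 to 4 genes in microglia-like (4 without nephrectomy library 1, 0 without nephrectomy library 3), 2 to 14 in endothelial-like (14 without nephrectomy library 3, 8 without sham library 2) and 0 to 9 in oligodendrocyte precursor-like nuclei (9 without sham library 2).

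The labels do not state that libraries are paired by replicate number. With the replicate numbers as a block the number of genes called was 4 in microglia-like, 0 in endothelial-like and 8 in oligodendrocyte precursor-like nuclei, and 0 members were called. The block took the microglia-like difference of Ikbkb to 0.0296 and of Tbk1 to 0.22.

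Small differences of members in microglia-like nuclei changed sign. Tlr7 stood at -0.042 with DESeq2's Wald test, 0.00 with size factors, -0.12 with at least 10 nuclei, -0.35 with a gate of 50%, -0.24 with no filter, -0.37 with the term for longest lists, and from -0.44 to 0.46 without a library. Rel stood at -0.0409, -0.0046, -0.25 and -0.19 with the Wald test, size factors, no filter and the term, and from -0.41 to 0.28 without a library. Tbk1 stood at 0.125 with at least 10 nuclei and 0.30 with a gate of 50%, and from -0.57 to 0.20 without a library. Leaving out a library moved Ikbkb from -0.41 to 0.0052 and Peli1 from -0.10 to 0.0836. In excitatory neuron-like nuclei Rela stood at 0.0816 with a gate of 90%, and Map3k7 from -0.29 to 0.0215 without a library. Chuk in astrocyte-like nuclei against the other classes stood at -0.0029 with at least 1000 genes. The cause was not tested for any of these changes.

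Depth limits what can be seen: microglia-like nuclei held 365500 UMIs in all and endothelial-like nuclei 281518, against 18423200 in excitatory neuron-like nuclei, and 9 and 2 members passed the filter for nephrectomy against sham in the first 2 classes. For want of nuclei, some settings were not run: at least 1000 genes in microglia-like and endothelial-like nuclei, the 4 libraries with shorter barcode lists in the same classes, and for nephrectomy against sham a gate of 90% in these classes and in oligodendrocyte precursor-like nuclei.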
